A study of Rattus norvegicus with 8 samples.

Results

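Matricellular proteins were followed here as 9 genes, Sparc, Sparcl1, Smoc1, Smoc2, Thbs1, Thbs2, Thbs4, Postn and Tnc, which were taken by name from a table of 19238 genes. All 9 were present in the table, and all 9 passed the filter on low counts that left 13673 genes for testing. The RNA came from the thoracic aorta of rats aged 7 to 8 weeks. One group was the Wistar strain, labelled control, and the other the GK (Goto-Kakizaki) strain, which develops diabetes without obesity and was labelled as diabetic macroangiopathy. There were 4 libraries per group, numbered 7 to 10 in both, and no treatment is named for either. Strain and diabetes split the samples in the same way and cannot be told apart. The labels do not say whether the libraries are separate animals, so the p-values measure the spread between these libraries only, part of which may be technical.

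Matricellular proteins are secreted into the matrix but serve mainly as regulators and not as load-bearing fibres. SPARC and its relatives bind calcium and collagen and affect how collagen fibrils assemble. Thrombospondins bind cell receptors such as CD36, CD47 and integrins, and some of them inhibit the growth of new vessels. Periostin and tenascin-C bind each other and collagen, and tenascin-C is known to appear in remodelling vessels. In an artery these proteins come from smooth muscle cells, from fibroblasts of the outer layer and from the endothelium.

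Library totals lay between 11760397 and 16266151 counts. Levels are CPM, counts divided by the TMM-scaled library total, unless FPKM is named, and a ± after a mean level is the SD over the 4 libraries. Fold changes compare GK with control on the log2 scale, ± SE. Adjusted p-values come from the quasi-likelihood test of edgeR, with the Benjamini-Hochberg method over all genes tested. A gene was called at an adjusted p under 0.05. Smooth muscle was present in every library, with 10 of 10 contractile markers detected and a summed level of 6016 to 15862 CPM in controls and 3105 to 8441 CPM in GK. Other tissue was present too. Skeletal muscle markers summed to 16653 CPM in GK 9 against 17.9 to 47.9 CPM in the other 7 libraries, and general adipocyte markers to 4759 to 7741 CPM in controls and 6799 to 14511 CPM in GK. Because the tissue was sequenced in bulk, fewer cells of a type and less RNA per cell cannot be told apart.

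Of the 9 genes 2 were called, both lower in GK, namely Sparc and Smoc1. Over all genes 7.28% were called, 3.31% lower and 3.96% higher in GK. Every GK library lay below every control for the same pair, while the ranges of the groups overlapped for the other 7 members. Among all genes every GK library lay below every control for 7.64%, and the groups were apart in either direction for 15.6%. The median log2 fold change of the 9 members was -0.40 against 0.00 over all genes, and 8 of 9 had a value below 0. The count of members called was 0 without control 10, GK 7 or GK 8 and 4 without GK 9. The calls over all genes moved alike, from 995 to 135, 187, 180 and 3046 in these fits. Relative to the contractile smooth muscle markers the values of Sparcl1, Smoc2, Thbs1, Postn and Tnc turned positive, and 1 member, Thbs4, was called. In that fit the median of all genes was 1.04, and 2563 genes were called higher and 48 lower. These shares describe the list and are no test of it.

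**Figure D1:**
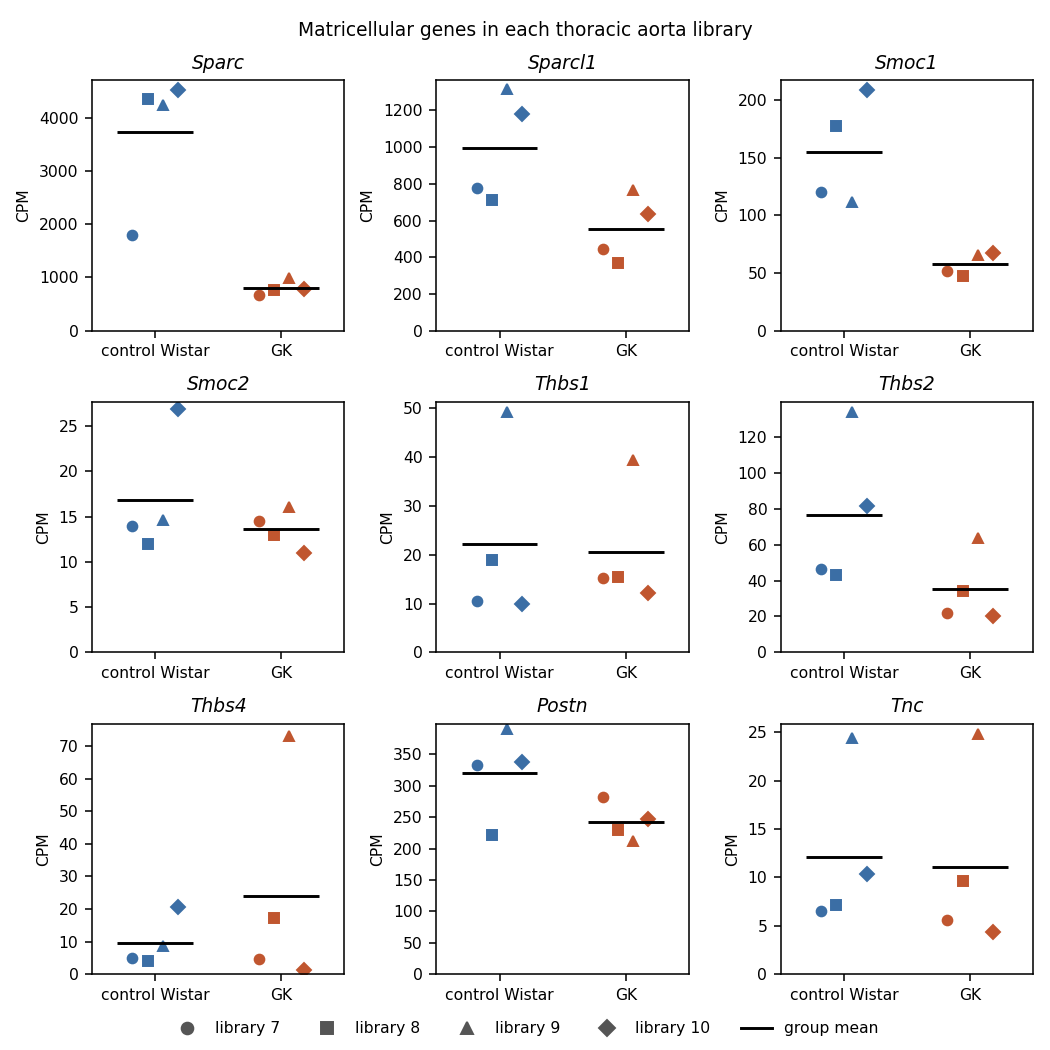
Expression of the 9 matricellular genes in each library, in CPM on a linear axis from 0; points are libraries, with a shape for each library number, and bars are group means. Sparc and Smoc1 are separated between groups, while within GK all members other than Smoc1 and Postn are highest in library 9.

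Sparc, the collagen-binding glycoprotein also called osteonectin, was the most strongly lowered member. It stood at 1796, 4372, 4257 and 4524 CPM in controls 7 to 10 and at 672, 766, 992 and 775 CPM in GK 7 to 10. The highest GK library was thus well below the lowest control, and control 7 was far below the other controls. The means were 3737 ± 1299 CPM in controls and 801 ± 135 CPM in GK (n = 4 each), a log2 fold change of -2.22 ± 0.35 (edgeR adjusted p = 0.0135). The gene lies on chromosome 10 (40742400 to 40764185 in the files' coordinates, whose genome build no label names). In control 7 the contractile smooth muscle markers were also lowest of the controls, at 6016 CPM against 12728 or more, and their part in the Sparc value was not tested. The change kept its size when any library was left out, from -2.44 to -2.12, but the call was lost without control 10 (edgeR adjusted p = 0.0532), GK 7 (0.0559) and GK 8 (0.0570). Scaled to the contractile smooth muscle markers, which moved the median of all genes by 1.04, Sparc was still lower, by -1.03 on the log2 scale relative to those markers, and was no longer called (edgeR adjusted p = 0.204). With the mean level of adipocyte markers as a covariate the change was -1.79 (edgeR adjusted p = 0.0834), again not a call. That mean was 7.46 to 8.32 log2 CPM in controls and 9.04, 9.11, 8.16 and 9.15 in GK 7 to 10. Only GK 9 lay within the control range, so covariate and group can hardly be separated. This limit holds for every covariate value given here.

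Sparcl1, or hevin, is the closest relative of Sparc and shares its calcium-binding and collagen-binding parts. Control libraries 7 to 10 had 775, 711, 1317 and 1182 CPM and GK libraries 444, 367, 765 and 634 CPM. The groups overlapped, because GK 9 exceeded control 8, and library 9 was highest in both. The log2 fold change was -0.85 ± 0.31 and did not pass the test (edgeR adjusted p = 0.124). Without GK 9, the library with skeletal muscle RNA, it was -1.03 and passed (edgeR adjusted p = 0.0452), and it also passed with DESeq2's Wald test (adjusted p = 0.0453). Those fits called 3046 and 2433 genes, against 995 in the fit reported, so passing there is not particular to Sparcl1. With the adipocyte covariate the Sparcl1 change was -0.02. Its sign turned, to 0.16, relative to the contractile smooth muscle markers.

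Smoc1 and Smoc2 encode secreted calcium-binding relatives of SPARC. Smoc1 is found in basement membranes and is known in the frog Xenopus as an inhibitor of bone morphogenetic protein signalling. Smoc1 stood at 120, 178, 112 and 209 CPM in controls 7 to 10 and at 51.9, 47.4, 65.6 and 67.6 CPM in GK 7 to 10. All 4 GK libraries were close together and below all controls. The mean fell from 154 ± 46.6 to 58.1 ± 10.003 CPM (n = 4 each), a log2 fold change of -1.41 ± 0.24 (edgeR adjusted p = 0.0163). Left-out libraries moved it between -1.53 and -1.24, and it lost its call without control 10 (edgeR adjusted p = 0.0539), GK 7 (0.0629) and GK 8 (0.0641). Relative to the contractile smooth muscle markers Smoc1 was not called (log2 fold change -0.35, edgeR adjusted p = 0.598), and with the adipocyte covariate it was at -1.22 (edgeR adjusted p = 0.103).

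Smoc2 was low and did not separate the groups. It had 13.9, 12.0, 14.7 and 26.9 CPM in controls 7 to 10 and 14.5, 13.0, 16.1 and 10.9 CPM in GK 7 to 10. Only control 10 stood apart, and the other 7 libraries lay within 10.9 to 16.1 CPM. On the log2 scale the change was -0.31 ± 0.27 (edgeR adjusted p = 0.473). In the files' coordinates Smoc2 is a neighbour of Thbs2 on chromosome 1, with 279817 bases between them.

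The promoters of the pair that was called and of Sparcl1, the relative of Sparc that was not called, are shown because these genes carry the contrast described above. RefSeq (assembly GRCr8) gave promoters for 7 of the 9 members, and Smoc2 and Thbs2 were not among them. Each sequence holds the 250 bases before the RefSeq start, 5′ to 3′ on the gene's strand, with capitals at any match to the motifs searched. These are chr10:40038817-40039066 on the minus strand for Sparc, chr6:106432356-106432605 on the plus strand for Smoc1 and chr14:5937234-5937483 on the plus strand for Sparcl1.
Sparc: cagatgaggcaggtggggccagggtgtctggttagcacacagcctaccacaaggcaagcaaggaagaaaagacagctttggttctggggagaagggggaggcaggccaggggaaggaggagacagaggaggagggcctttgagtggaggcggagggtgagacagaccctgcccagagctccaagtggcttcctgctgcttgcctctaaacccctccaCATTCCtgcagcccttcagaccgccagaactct
Smoc1: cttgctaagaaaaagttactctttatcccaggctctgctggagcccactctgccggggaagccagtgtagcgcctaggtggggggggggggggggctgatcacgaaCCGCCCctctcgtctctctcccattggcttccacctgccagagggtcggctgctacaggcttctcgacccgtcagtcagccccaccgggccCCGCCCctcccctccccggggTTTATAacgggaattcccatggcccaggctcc
Sparcl1: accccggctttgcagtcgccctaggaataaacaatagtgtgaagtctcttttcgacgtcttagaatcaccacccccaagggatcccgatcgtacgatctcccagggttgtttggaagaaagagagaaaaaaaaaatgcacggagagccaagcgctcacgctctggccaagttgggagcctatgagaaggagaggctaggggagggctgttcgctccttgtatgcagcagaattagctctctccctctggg

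The motifs were searched on both strands and none overlapped another in these windows. They were the TATA box (TATAAA), the GC box bound by Sp factors (GGGCGG), the TEAD site (GGAATG), the AP-1 site (TGANTCA), the Smad palindrome (GTCTAGAC) and the CArG box of serum response factor. In the Sparc window the search found a TEAD site starting 33 bases before the start, on the strand opposite the printed one, and none of the other motifs. Smoc1 had a TATA box match starting 32 bases before the start and GC boxes starting 144 and 53 bases before it, all on the strand opposite the printed one. Sparcl1 had no match. Of the 7 members with a promoter, 3 held the TEAD site, 3 the TATA box and 4 the GC box, against 12.1%, 12.9% and 30.5% of all 33469 windows of this length. No member held the AP-1 site, the CArG box or the Smad palindrome, which occurred in 6.34%, 1.497% and 0.173% of all windows. These matches describe letters only and are not binding sites. By base content, G and C made up 60.0% of the Sparc window, 64.8% of the Smoc1 window and 52.4% of the Sparcl1 window, against a median of 51.2% over all windows.

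Smoc1 was also the single member named in the authors' lists built from called RNAs without a protein product. In the authors' predicted pairs of long non-coding RNA (lncRNA) and target gene, 1 of 17441 pairs had a member as its target, NONRATT024458.2 with Smoc1, of the cis type. The pairs covered only the 591 lncRNA that the authors had called different between the groups. A difference in this transcript was thus a condition of its being listed, and its values below are no separate evidence. This transcript of 783 bases lies on chromosome 6 at 104873006 to 104878409, and the Smoc1 gene at 104718512 to 104877980, so their coordinates overlap. Its level in the lncRNA table was 194, 359, 203 and 327 CPM in controls 7 to 10 and 96.1, 80.4, 83.8 and 104 CPM in GK 7 to 10. As with Smoc1, all GK libraries were below all controls. The log2 fold change was -1.57 ± 0.25 (edgeR adjusted p = 0.0177, over 11683 lncRNA tested, of which 2.74% were called). It lost the call without control 10, GK 7, GK 8 or GK 10, with a highest adjusted p of 0.0705 by edgeR and changes from -1.70 to -1.39.

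There were 4 lncRNA transcripts with coordinates overlapping Smoc1, all tested, and 2 were called. The second was NONRATT024457.2, at 9.60 ± 1.73 CPM in controls and 2.88 ± 0.929 CPM in GK (log2 fold change -1.69 ± 0.31, edgeR adjusted p = 0.0294). MSTRG.35262.1 had a change of -1.07 ± 0.30 (edgeR adjusted p = 0.104) and NONRATT024459.2 one of -1.09 ± 0.34 (edgeR adjusted p = 0.130), neither a call. All 4 fitted values were thus below 0. The files do not give the strand of these transcripts, so reads of Smoc1 and of the overlapping transcripts cannot be told apart, and the gene and the lncRNA are not independent measurements. Smoc1 is the member named among the 50 annotated parental genes of circular RNAs that the authors' deposited table called between the groups. The level of that circular RNA was not used here. At the other members' loci 1 transcript overlapped Thbs2, 1 Thbs4 and 1 Postn. The one in Thbs4 was too low to be tested, and neither of the others was called. The one in Postn, NONRATT015286.2, had a change of -1.22 ± 0.53 (edgeR adjusted p = 0.273).

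**Figure D2:**
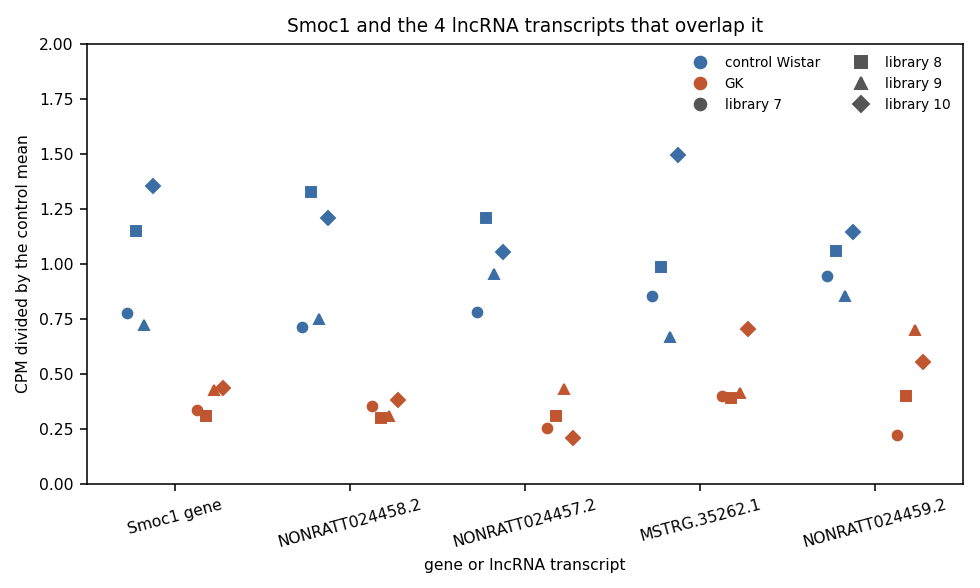
Smoc1 and the 4 lncRNA transcripts that overlap it, per library, as CPM divided by the control mean of the same feature; colours are groups and shapes are library numbers. GK libraries lie below all controls for Smoc1, NONRATT024458.2, NONRATT024457.2 and NONRATT024459.2, and the groups overlap for MSTRG.35262.1.

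Thrombospondins differed from each other in their pattern. Thbs1 encodes the thrombospondin that activates latent TGF-beta and signals through CD47 and CD36. It had 10.5, 18.9, 49.3 and 9.83 CPM in controls 7 to 10 and 15.2, 15.5, 39.4 and 12.2 CPM in GK 7 to 10. Library 9 was highest in each group, and the groups overlapped throughout. GK over control gave a log2 fold change of -0.11 ± 0.58 (edgeR adjusted p = 0.921), and its sign depended on the library left out, with values from -0.62 without GK 9 to 0.65 without control 9.

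Thbs2 encodes the inhibitor of vessel growth that, in mice, is also needed for normal collagen fibrils. It had 46.7, 43.2, 134 and 81.8 CPM in controls 7 to 10 and 22.0, 34.3, 63.6 and 20.5 CPM in GK 7 to 10. GK 9 overlapped the controls, and the other GK libraries were below all of them. The log2 fold change was -1.12 ± 0.47, not a call (edgeR adjusted p = 0.165). Without GK 9 it was -1.56 and passed (edgeR adjusted p = 0.0341), and without both libraries numbered 9 it was -1.16 (edgeR adjusted p = 0.0335). These fits called 3046 and 2534 genes, against 995 in the fit reported, so passing there is not particular to Thbs2. Relative to the contractile smooth muscle markers Thbs2 was at -0.06, and with the adipocyte covariate at 0.35.

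Thbs4, known from muscle, tendon and heart, was the member with the widest range. It had 4.84, 4.16, 8.71 and 20.5 CPM in controls 7 to 10 and 4.53, 17.1, 73.2 and 1.21 CPM in GK 7 to 10, a 60.6-fold range within GK. The GK group thus held both the highest and the lowest library of the study. The log2 fold change of 1.33 ± 1.07 did not pass the test (edgeR adjusted p = 0.446) and was -0.31 without GK 9. Relative to the contractile smooth muscle markers it was 2.17 and passed (edgeR adjusted p = 0.00499). That scaling moved the median of all 13673 genes to 1.04 and called 2563 of them higher and 48 lower, so this call is not particular to Thbs4. It was 3.85 with the adipocyte covariate (edgeR adjusted p = 0.0595) and 0.27 with limma voom (adjusted p = 0.904). GK 9 is also the library with skeletal muscle markers at 16653 CPM, all 6 measured markers being highest there, and their part in the Thbs4 value was not tested. Cardiomyocyte markers summed to 72.6 CPM in GK 9 and were highest in GK 8, at 2115 CPM. The sum of the chondrocyte and tendon markers was also highest in GK 9, at 8.39 CPM against 1.36 to 5.09 CPM in the other 7 libraries. Its markers did not move together. Sox9 (4.26 CPM in GK 9), Col2a1 and Tnmd peaked in GK 9, while Acan, Matn3, Chad and Scx each peaked in a control. Of these 7 markers 2 were under 1 CPM throughout.

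**Figure D3:**
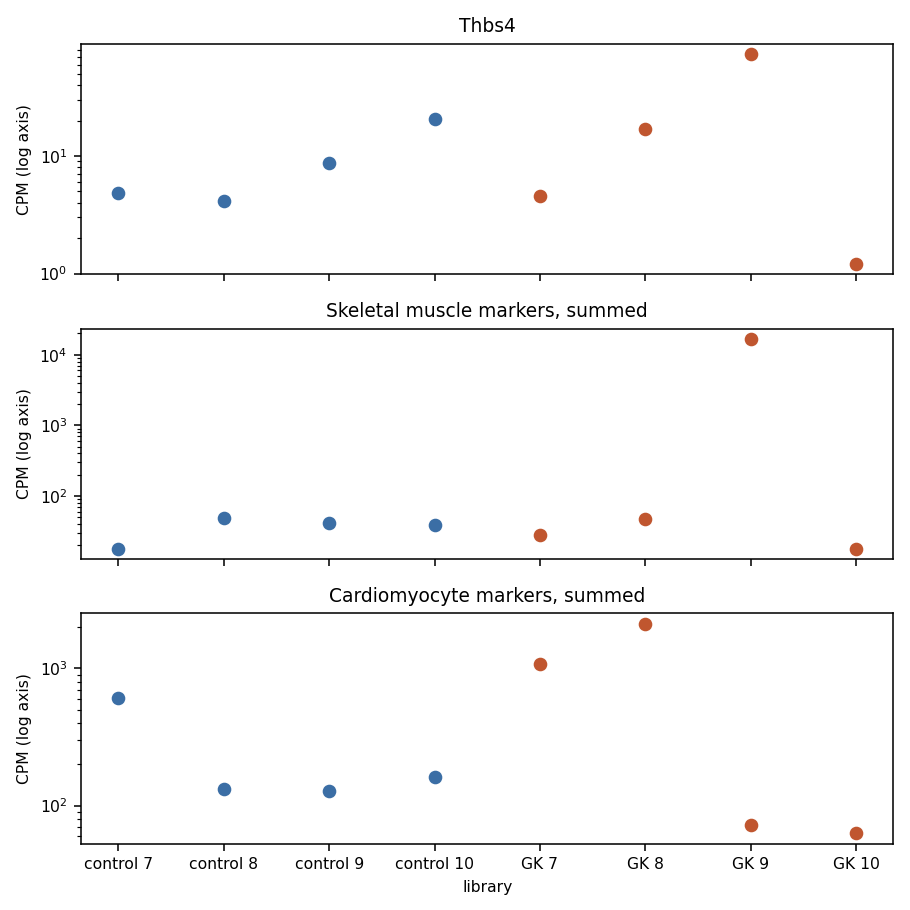
Thbs4 and the summed skeletal muscle and cardiomyocyte markers in each of the 8 libraries, in CPM on log axes. Thbs4 is highest in GK 9, where the skeletal muscle markers stand at 16653 CPM, and the cardiomyocyte markers are highest in GK 8.

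Postn encodes periostin, a collagen-binding protein of fibroblasts that rises in wounds and remodelling tissue. It had 333, 221, 390 and 338 CPM in controls 7 to 10 and 282, 229, 212 and 247 CPM in GK 7 to 10. Control 8 lay among the GK libraries, and the other controls were above all of them. On the log2 scale the change was -0.40 ± 0.20 (edgeR adjusted p = 0.230), and left-out libraries kept it between -0.54 and -0.29 without a call. It turned to 0.69 relative to the contractile smooth muscle markers (edgeR adjusted p = 0.344).

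Tnc encodes tenascin-C, an adhesion-modulating glycoprotein that is scarce in quiescent adult tissue. It had 6.53, 7.12, 24.4 and 10.4 CPM in controls 7 to 10 and 5.55, 9.61, 24.8 and 4.38 CPM in GK 7 to 10. Both groups peaked in library 9, at nearly the same level. GK over control gave a log2 fold change of -0.13 ± 0.62 (edgeR adjusted p = 0.913), and turned positive without control 9 (0.47), GK 7 (0.09) or GK 10 (0.14). The summed nerve and Schwann cell markers were also highest in library 9 of each group, at 617 CPM in the control and 1139 CPM in the GK group, as were the fibroblast markers in GK (2730 CPM) and in controls (4535 CPM). Their part in the Thbs1, Thbs2 and Tnc values of these libraries was not tested.

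Whether related members changed unequally was asked with the ratio of their counts within a library, which no library scaling can move. Sparc over Sparcl1 was 1.21, 2.62, 1.69 and 1.94 on the log2 scale in controls 7 to 10, against 0.60, 1.06, 0.38 and 0.29 in GK 7 to 10. Every GK library was below every control, with a difference of group means of -1.28. Smoc1 over Smoc2 was 3.10, 3.88, 2.92 and 2.96 in controls and 1.83, 1.87, 2.03 and 2.62 in GK, again without overlap, a difference of -1.13. For Thbs1 over Thbs2 the order was the opposite, at -2.15, -1.19, -1.44 and -3.05 in controls and -0.53, -1.14, -0.69 and -0.75 in GK, a difference of 1.18. Each of these differences had an exact two-sided permutation p of 0.0286, the smallest that 4 against 4 libraries allow, and a Benjamini-Hochberg value of 0.0571 over the 6 pairs, so none passed the correction. In each, all 4 GK libraries lay on the same side of all controls, which the smallest p already states and which is no further evidence.

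The other ratios overlapped. Thbs2 over Thbs4 differed by -1.36 (exact permutation p = 0.257, 0.386 adjusted), Thbs1 over Thbs4 by -0.18 (exact permutation p = 0.914, 0.914 adjusted) and Postn over Tnc by -0.12 (exact permutation p = 0.80, 0.914 adjusted). The SDs of the GK group were 1.82, 1.89 and 1.25 on the log2 scale for these ratios, against 0.35, 0.37 and 0.26 for the Sparc, Smoc1 and Thbs1 over Thbs2 ratios. A p above the threshold does not show that these pairs changed alike.

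**Figure D4:**
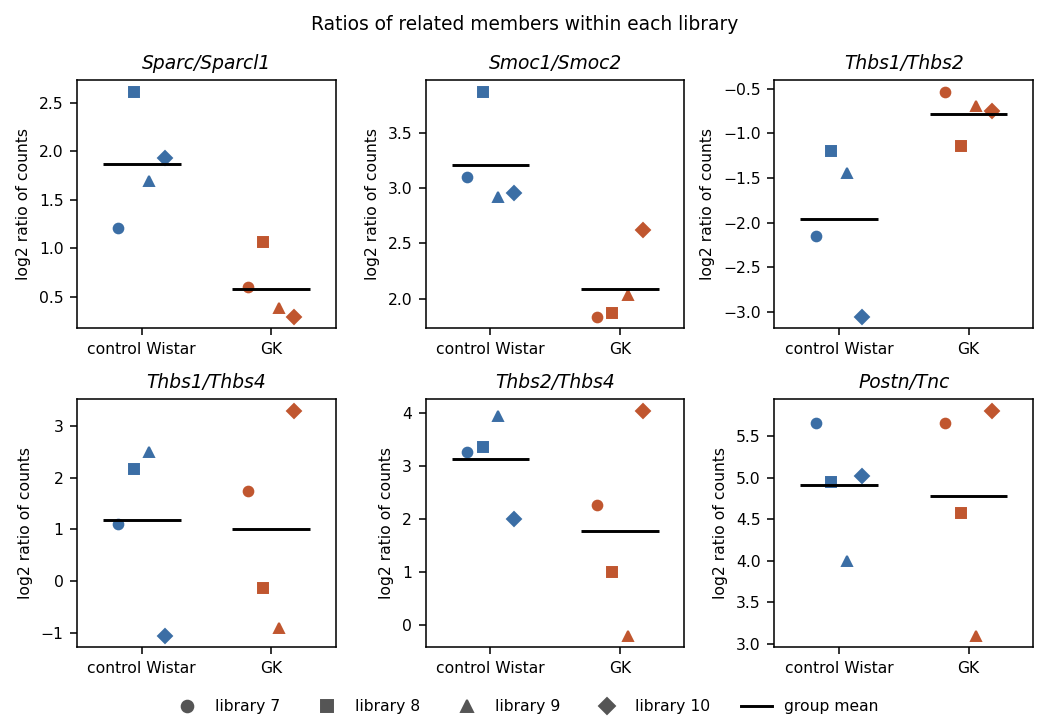
Log2 ratio of counts of related members in each library; points are libraries, shapes are library numbers and bars are group means. The groups do not overlap for Sparc/Sparcl1, Smoc1/Smoc2 and Thbs1/Thbs2, and overlap for the other 3 ratios.

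Levels of different genes were compared per length, with the FPKM deposited by the authors. In controls Sparc was highest at 1945 ± 754 FPKM, rank 23 of 19238 genes, and in GK it stood at 378 ± 129.9 FPKM and rank 116. Sparcl1 followed with 398 ± 166 FPKM in controls and 197 ± 91.9 in GK, and then Smoc1 with 94.5 ± 27.3 and 32.3 ± 8.84 and Postn with 84.2 ± 27.8 and 55.3 ± 4.78. Thbs2 was at 14.6 ± 9.84 FPKM in controls and 6.10 ± 4.58 in GK. The remaining members were at 5.44 (Thbs1), 4.05 (Smoc2), 2.97 (Thbs4) and 1.90 FPKM (Tnc) in controls. In controls the ranges of neighbours in this order were apart for Sparc and Sparcl1, for Sparcl1 and Smoc1 and for Postn and Thbs2, and they overlapped for the other 5 neighbours. In GK the order of Smoc1 and Postn was exchanged and their ranges were apart, while Sparc and Sparcl1 had overlapping ranges. Thbs4 moved from rank 8 of the members in controls to rank 5 in GK, at 7.63 ± 11.4 FPKM. GK 9 stood at 24.4 FPKM, and Thbs4 exceeded Thbs2 in only 1 of 4 GK libraries. Sparc exceeded Sparcl1 in all 4 GK libraries, by a ratio of means of 1.92 against 4.88 in controls.

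The members were compared by profile through the root mean square difference of their mean-centred log2 CPM over the 8 libraries. The closest members were Smoc2 and Postn (0.36 log2 units), Sparcl1 and Postn (0.46) and Thbs1 and Tnc (0.49), while Sparc and Smoc1 were 0.53 apart. Thbs4 was the farthest, at 1.94 from Sparc. Among 8781 other named genes with a mean log2 CPM of at least 3, the nearest to Sparc were Mtus2 (0.21 log2 units), Kdelr3 (0.28) and Mgp (0.29), and to Smoc1 they were Creb3l2 (0.19), Aass (0.20) and Pdgfrb (0.20). Sparcl1 was nearest to Tmem47 (0.10), Cald1 (0.16) and Greb1l (0.18), and Thbs2 to Dtx4 (0.18), Clmp (0.21) and Gpc3 (0.21). Nearest to Thbs4 were Klhl31 (0.69), Alpk3 (0.73) and Gng2 (0.81), so no gene came as close to it as to the other members named here. For Postn they were Cyb5b (0.11), Ghr (0.12) and Rock1 (0.13), for Smoc2 Gcnt2 (0.13), Sema7a (0.18) and Mlxip (0.19), for Thbs1 Nkd2 (0.28), Tmem189 (0.29) and Ube2o (0.35), and for Tnc Ryr3 (0.16), Abca8a (0.27) and Prr5 (0.27). These distances describe likeness in 8 libraries and carry no test.

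Other genes of the same biology were read from the same fit. Of 63 listed, 61 were found and 55 tested, and 8 were lower and 1 higher in GK, beside 3.31% and 3.96% over all genes. Their median log2 fold change was -0.43 against 0.00 over all genes. The count called rested on single libraries, being 0 without control 10, GK 7 or GK 8, 1 without GK 10, 3 without control 9, 5 without control 8 and 21 without GK 9. This was not particular to the list. Over all genes the calls went from 995 to 135, 187, 180, 294, 520, 591 and 3046 in the same order of fits.

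Among the other relatives of SPARC, Fstl1, a secreted follistatin-like protein, fell to 183 ± 86.3 CPM in GK from 492 ± 156 in controls (-1.43 ± 0.36 on the log2 scale, edgeR adjusted p = 0.0486). Its call was lost in 7 of the 8 fits with 1 library left out, all but the one without GK 9 (edgeR adjusted p up to 0.145), with library totals without TMM (0.102), with no filter (0.0614) and with DESeq2 size factors (0.0504). With the adipocyte covariate the Fstl1 change was -0.41. Spock2, the other tested gene of that family, had 17.6 ± 8.58 CPM in controls against 19.6 ± 23.7 in GK, where GK 9 stood at 55.0 CPM and the others at 4.98 to 11.1 CPM. None of the remaining thrombospondins (Thbs3 and Comp, the cartilage oligomeric matrix protein), tenascins (Tnxb) or Tgfbi, a relative of periostin, was called. Control and GK means were 15.6 ± 6.86 and 8.40 ± 4.58 CPM for Thbs3, with Comp at 4.70 ± 1.92 and 2.63 ± 1.79, Tnxb at 290 ± 87.1 and 265 ± 173 and Tgfbi at 60.4 ± 45.4 and 33.6 ± 35.1. None of 5 tested CCN genes, another matricellular family, was called. The most abundant were Nov, also called Ccn3, with control and GK means of 1282 ± 680 and 663 ± 293 CPM, and Ctgf, or Ccn2, with 264 ± 242 and 254 ± 129. None of 8 further matricellular genes was called. Lgals1, galectin-1, had control and GK means of 237 ± 64.4 and 339 ± 76.6 CPM, and Ecm1 of 155 ± 38.8 and 79.0 ± 24.2.

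Receptors moved in both directions, with 2 of 16 lower and 1 higher, beside 3.31% and 3.96% over all genes. Itga8, the integrin chain of smooth muscle whose dimer binds tenascin-C, fell to 312 ± 107 CPM in GK from 1437 ± 573 in controls (-2.21 ± 0.39 on the log2 scale, edgeR adjusted p = 0.0184). Itga9, whose dimer also binds tenascin-C, fell from 120 ± 38.8 to 39.4 ± 11.8 CPM (-1.61 ± 0.29, edgeR adjusted p = 0.0213). Sdc4, the cell surface proteoglycan syndecan-4, rose from 67.5 ± 15.3 to 238 ± 113 CPM (1.82 ± 0.42 on the log2 scale, edgeR adjusted p = 0.0386), although its groups overlapped. With the adipocyte covariate the Sdc4 change was 0.17 (edgeR adjusted p = 0.847), and it also lost its call with no filter on low counts (edgeR adjusted p = 0.0521) and with limma voom (adjusted p = 0.0504). Leaving out 1 library lost the call in 7 of 8 fits for Sdc4 (edgeR adjusted p up to 0.127), 4 for Itga9 and 3 for Itga8. The thrombospondin receptors Cd36 (0.96 ± 0.28, edgeR adjusted p = 0.0737) and Cd47 (0.27 ± 0.24, edgeR adjusted p = 0.484) were not called. Both were chosen for mention for their ligands after their values were seen.

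Proteases that cut or bind these proteins had 4 of 8 tested genes lower and none higher, beside 3.31% lower and 3.96% higher over all genes. Mmp2, gelatinase A, fell from 466 ± 86.1 to 132 ± 68.2 CPM (-1.82 ± 0.34, edgeR adjusted p = 0.0223) and Mmp14, its membrane-bound activator, from 131 ± 40.1 to 50.8 ± 18.1 CPM (-1.36 ± 0.30, edgeR adjusted p = 0.0355). Htra1, a secreted serine protease, fell from 162 ± 31.1 to 77.7 ± 26.2 CPM (-1.06 ± 0.25, edgeR adjusted p = 0.0416) and Bmp1, the procollagen C-proteinase that also binds periostin, from 67.4 ± 13.4 to 33.2 ± 10.8 CPM (-1.02 ± 0.24, edgeR adjusted p = 0.0441). For all 4 every GK library was below every control, as for 7.64% of all genes. With 1 library left out the call was lost in 7 of 8 fits for Bmp1, 6 for Htra1, 6 for Mmp14 and 4 for Mmp2. All 4 lost it with library totals without TMM (edgeR adjusted p from 0.0581 to 0.113). With no filter Bmp1 (0.0555) and Htra1 (0.0524) also lost it. Of 12 tested regulators 1 was called, Tgfb3, a TGF-beta ligand, which fell from 239 ± 104 to 61.0 ± 21.8 CPM (-1.97 ± 0.39, edgeR adjusted p = 0.0268). The Tgfb3 call was lost in 5 of 8 fits with 1 library left out (edgeR adjusted p up to 0.0946) and with library totals without TMM (0.0509). The other ligands Tgfb1 (-0.10 ± 0.12) and Tgfb2 (-0.74 ± 0.26) and the cofactor Myocd (-0.85 ± 0.31) had edgeR adjusted p-values of 0.633, 0.114 and 0.124, and were likewise picked for mention after their values were seen. None of the 8 lowered genes stayed called relative to the contractile smooth muscle markers, although Itga8 is itself 1 of the 10 markers in that scale, so its own value cannot be read against it. With the adipocyte covariate none of the 9 called related genes kept its call, but that covariate nearly splits the groups, as given for Sparc.

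**Figure D5:**
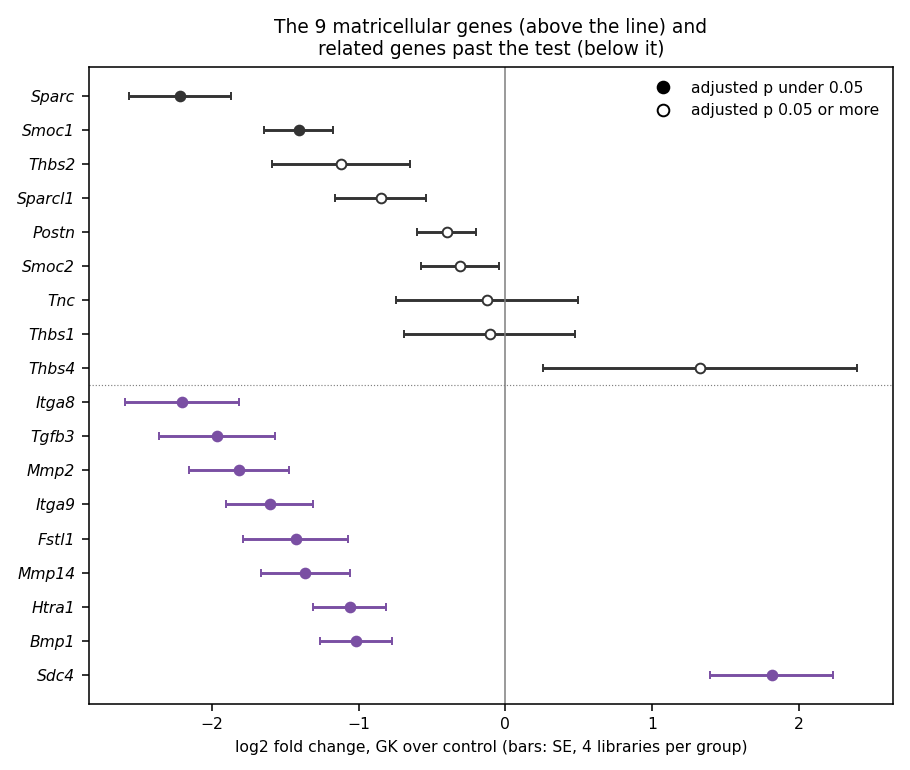
Log2 fold changes, GK over control, of the 9 matricellular genes and of the 9 related genes past the test; bars are SE, 4 libraries per group, and filled points have an adjusted p under 0.05. Sparc, at -2.22, lies at the low end of the members and Thbs4, at 1.33, has the widest error bar.

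Marker lists of other cell types were read from the same fit, in which 3.31% of all genes were lower and 3.96% higher. Of 10 contractile smooth muscle markers 2 were lower, Lmod1 and Itga8, the latter being the receptor gene given above, and none was higher. The median log2 fold change of this list was -1.06, and the most abundant, Myh11, had means of 3533 CPM (controls) and 1711 CPM (GK). Of 8 fibroblast markers 2 were lower (median -1.09), and their sum ran from 1618 to 4535 CPM in controls and from 861 to 2730 CPM in GK. Of 7 endothelial markers 3 were higher (median 0.70), with sums of 570 to 904 CPM in controls and 963 to 1196 in GK. Of 8 general adipocyte markers 3 were higher (median 0.83). The brown adipocyte markers had 1 of 4 higher (median 1.49), with sums of 493 to 2750 CPM in controls and 1404 to 4783 in GK. Of 7 macrophage markers 1 was lower (median -0.93), with sums of 410 to 1001 CPM in controls and 262 to 431 in GK. Of 5 nerve and Schwann cell markers 1 was higher (median 1.38), with sums of 120 to 617 CPM in controls and 371 to 1139 in GK. No mesothelial or erythroid marker was called, with sums of 1.06 to 123 CPM and 2050 to 29637 CPM over all libraries. Single markers ranged down to -2.21 (Itga8) among the smooth muscle and -2.15 (Dpt) among the fibroblast markers, against -2.22 for Sparc and -1.41 for Smoc1. The part of cell mixture in these values was not tested, and the scaled and covariate fits given above cannot separate it from the group.

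In the authors' deposited table the same pair of members was called lower, Sparc with a log2 fold change of -2.36 and a q-value of 4.29e-08 and Smoc1 with -1.55 and 0.000407. Thbs2 had a q-value of 0.0880 and Sparcl1 one of 0.114 there, and neither was called. Among the terms that hold Sparc and Smoc1 in the authors' deposited enrichment, extracellular matrix led for both. It had 71 called genes of 340 annotated (authors' q-value 2.72e-18). The enrichment was built from genes called in these same counts, Sparc and Smoc1 among them, so it is no separate evidence.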

How the data were processed

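Counts per gene and per lncRNA transcript were deposited by the authors as whole numbers. FPKM per library, the authors' log2 fold changes of group means, and p-values and q-values stand in the same tables per the file headers; the table's title names edgeR for them, with no version or test. The counter and the rat build are not given in the sources used here, and the submitters' processing notes name Bowtie 0.12.2 and the mouse builds mm8 and mm9 with no role. Samples were grouped by title. The source name reads GK for all and was not used.

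Members and lists were chosen with earlier results of these data known. Counts were tested in R 4.3.3 with edgeR 4.0.16 (filterByExpr, TMM, glmQLFit, glmQLFTest; the group was the single term; adjusted p under 0.05 over all genes), and SE is the fold change over the root of F. Ratios used counts plus 0.5 and exact permutation tests (scipy 1.17.1). Counts were simulated with 200 of 13673 genes changed and each gene drawn independently of the others. On these simulated counts the test called 21.8% of the genes changed 2-fold and 73.7% of those changed 4-fold. It made 5 false calls among 13473 unchanged genes. A gene that was not called may therefore still have changed. These rates hold for that setting and need not carry over to the libraries used here. Alternatives used DESeq2 1.42.0 and limma 3.58.1. All members are named, as are related genes past the test and, in lists with none, the pair with the highest CPM, and for likeness the 3 nearest genes. Of 63 related genes, Mmp3 was not found and Tgfbr1 had more than 1 row and was left out. The 6 CCN genes, Mrtfa and the marker Hba-a1 were matched through synonyms (GRCr8). Where sequences are shown, they are RefSeq's.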

Additional observations from a re-analysis of the deposited data

Results flagged for a closer look

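Among the 30 sets of 4 libraries examined (9 members and 6 ratios in each group), 2 had a library far from the other 3, where chance alone flags about 1 in 20. In the controls the Sparc level of control 7, 1796 CPM, was far below the 4257 to 4524 CPM of the others, with a gap of 0.902 of the group's range. In GK the Thbs1 level of GK 9, 39.4 CPM, was far above the 12.2 to 15.5 CPM of the others, with a gap of 0.877 of the range.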

How the results depend on the processing

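The threshold depended on single libraries and on scaling more than the directions of Sparc and Smoc1 did, which stayed below 0 in every alternative run. The cause was not tested. Over all genes 995 were called, against 473 with library totals without TMM, 654 with no filter on low counts, 2433 with DESeq2's Wald test, 416 with the adipocyte covariate, 2611 scaled to the contractile smooth muscle markers (48 lower, 2563 higher), 2534 without both libraries numbered 9 and 135 to 3046 with 1 library left out. Of the 9 members 3 were called with DESeq2's Wald test (Sparcl1 added), 3 without both libraries numbered 9 (Thbs2 added), 0 with the adipocyte covariate, 1 with smooth muscle scaling and 0 to 4 with 1 library left out. Of the related genes, 9 in the fit reported, 3 were called with library totals, 5 with no filter, 16 with DESeq2's Wald test, 1 with the covariate (Ptprz1, none of the 9), 18 without both libraries numbered 9 and 0 to 21 with 1 library left out. Smooth muscle scaling called 6, all higher, of which 1 was among the 9. The lncRNA in Smoc1 ranged from -1.70 to -1.39 with 1 library left out.

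Log2 fold changes whose sign turned, none of them a call in the fit reported except Bmp1, were as follows. Under smooth muscle scaling they were Sparcl1 0.16, Smoc2 0.82, Thbs1 1.01, Postn 0.69, Tnc 0.89 and Bmp1 0.0069. With the adipocyte covariate they were Smoc2 0.42, Thbs1 1.07, Thbs2 0.35 and Tnc 1.59. Without both libraries numbered 9 they were Thbs1 0.13, Thbs4 -0.37, Thbs1 over Thbs4 0.89 and Postn over Tnc 0.13, and with limma voom Thbs1 0.066. With 1 library left out Smoc2 ranged from -0.44 to 0.0050, Thbs1 from -0.62 to 0.65, Thbs4 from -0.31 to 2.01, Tnc from -0.88 to 0.47, Thbs1 over Thbs4 from -0.95 to 0.45 and Postn over Tnc from -0.47 to 0.44.

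The libraries share numbers between groups, but no label says that the numbers pair animals, so they were not taken as pairs. Same-numbered libraries deviated together unevenly (r = 0.42, 0.07, 0.55 and 0.02 for 7 to 10). Differently numbered libraries ran from -0.39 to 0.41, so the values of 7 and 9 lay above that range. Whether the numbers mark a shared factor was not tested. With the replicate block 2372 genes, 4 members (Sparcl1 and Thbs2 added) and 23 related genes were called, and Thbs1 was at 0.048. Levels per length from counts and gene length were not run, because the gene table used gives no length. Dividing FPKM by the TMM factor, chosen after seeing the data, left 3 neighbours apart, as before.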
